A study of Macaca mulatta with 33 samples.

Results

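The 10 genes of iron handling were followed in liver RNA of 33 young macaques: HAMP, TF, TFRC, TFR2, HFE, FTH1, FTL, SLC40A1, BMP6 and CP. They were taken by gene symbol from a table of 34882 genes, in which each of the 10 had a single row. The table marks missing estimates with a placeholder number of repeated nines. It stood in 15 genes, and none of the 10 iron genes held it in any library. All 10 had a mean above the low-value limit of 0.5 FPKM (fragment counts corrected for transcript length and for the size of the library) and entered the tests.

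The animals were 3 years old and are named by the maternal diet, eaten in pregnancy and lactation, and then the diet eaten from weaning. WSD is a western-style diet and CD a control diet. There were 7 WSD/WSD, 6 CD/WSD, 10 WSD/CD and 10 CD/CD livers, with 1 library per animal. The design text names Japanese macaques, while the organism label names the rhesus macaque. No genotype, sex or kinship was used here, so the animals were treated as independent.

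The liver sets how much iron enters the blood. Hepatocytes secrete hepcidin, the product of HAMP, which binds the exporter ferroportin (SLC40A1) on macrophages, enterocytes and hepatocytes and has it degraded. Hepcidin is switched on by bone morphogenetic proteins, BMP6 and BMP2, which the endothelial cells of the liver sinusoids release, and the hepatocyte proteins HFE, TFR2 and hemojuvelin (HJV) tune that signal. Transferrin (TF) carries iron in plasma, TFRC takes up loaded transferrin, ceruloplasmin (CP) oxidises iron at export, and the ferritin chains FTH1 and FTL store it.

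The liver label was checked against its markers: 7 of 8 hepatocyte markers were found and none was listed at 0 in every library, with a summed level between 5728 and 28800 FPKM. Red cell markers summed to at most 4.92 FPKM. Relative sequencing depth, estimated from the lowest nonzero values, lay between 0.514 and 1.65 of that of CD/CD replicate 4. The mitochondrial share, the percent of summed FPKM in 13 mitochondrially encoded genes, lay between 1.33% and 16.1%. Animal numbers begin with 30, 31, 33 or 34, which the labels do not explain. These number series are spread unevenly over the diets: series 34 holds 5 WSD/CD animals only, series 33 holds 3 WSD/CD and 5 CD/CD animals, series 31 holds 2 WSD/WSD, 3 CD/WSD and 1 CD/CD animal, and series 30 holds 5 WSD/WSD, 3 CD/WSD, 2 WSD/CD and 4 CD/CD animals. Endothelial and Kupffer cell markers also differed by series, and the values are given with the genes they moved with.

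Per length of transcript, transferrin was the most abundant of the 10, with a mean of 2454 FPKM over the 33 livers. Ceruloplasmin followed at 999 FPKM, then the ferritin heavy chain FTH1 at 625.2, the light chain FTL at 333 and the second transferrin receptor TFR2 at 264 FPKM. Ferroportin averaged 58.8 FPKM. HFE, the hemochromatosis protein, averaged 5.60 FPKM, TFRC 3.56 FPKM and BMP6 1.24 FPKM. HAMP had a median of 3.84 FPKM and was listed at 0 in 12 of the 33 libraries.

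**Figure D1:**
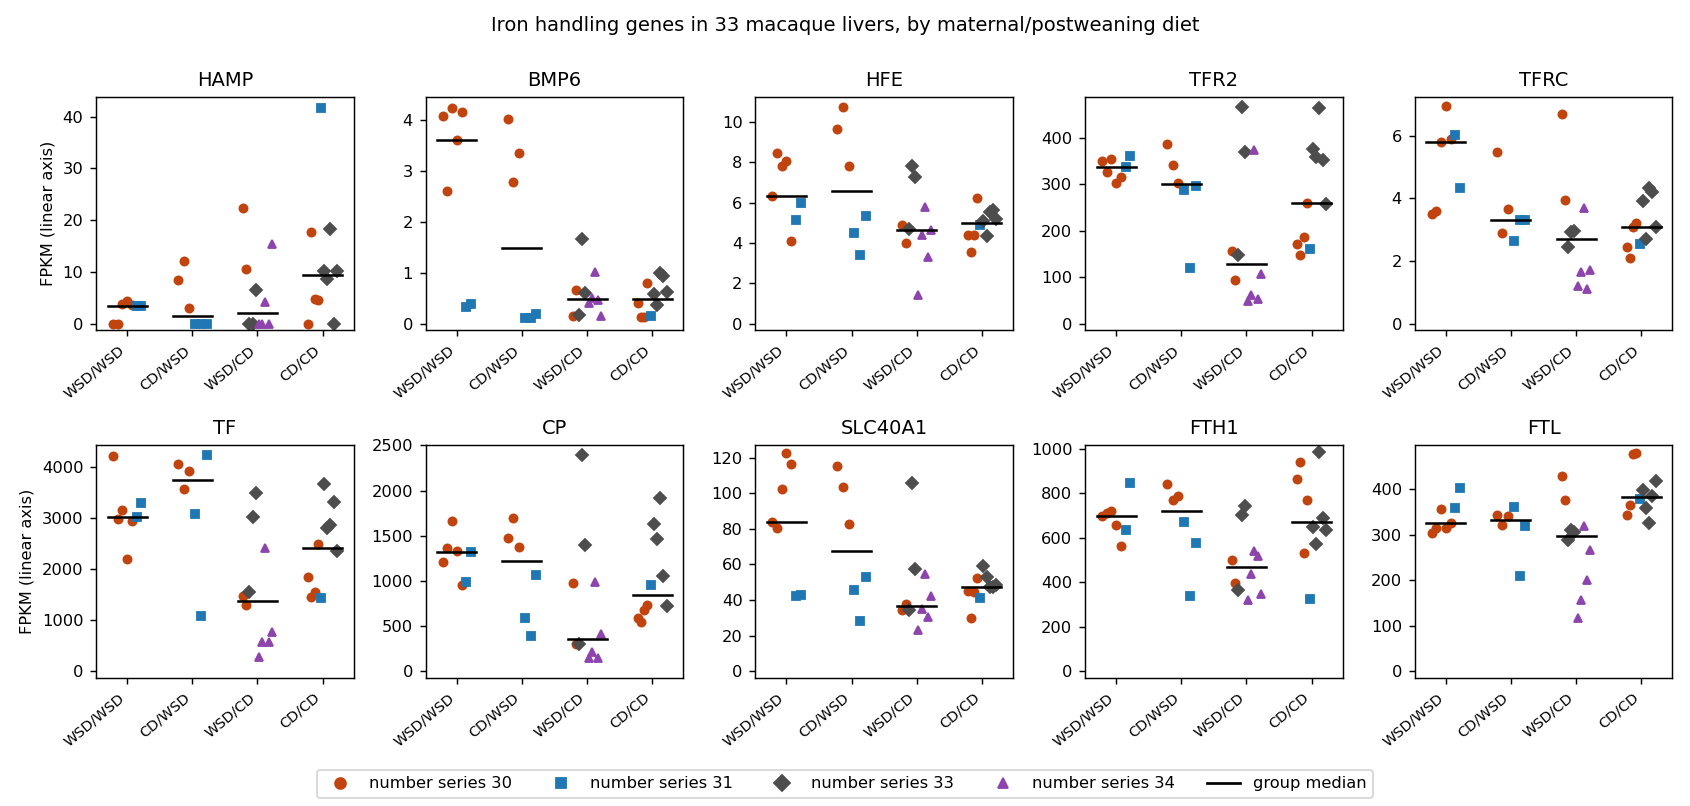
FPKM (linear axes) of the 10 iron handling genes in each of 33 livers, by maternal/postweaning diet, with colour and shape for the number series of the animal and a bar for the group median. BMP6 and SLC40A1 in both postweaning WSD groups fall into a high cluster of series 30 animals and a low cluster of series 31 animals, and TF, TFR2, CP and FTL are lowest in WSD/CD animals of series 34.

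Expression was compared as log2(FPKM + 1) with limma over all 12497 genes tested, and a gene was called at an adjusted p under 0.05. Fold changes on this scale understate those of low genes such as BMP6. In WSD/WSD against CD/CD livers, 3 of the 10 genes were higher (BMP6, SLC40A1 and TFRC) and none was lower, against a background of 13.2% of all genes called higher and 3.42% called lower. In CD/WSD against CD/CD none was called, where 0.024% of all genes were. Within series 30 alone 6 were called, where 39.1% of all genes were. When the fit held a term for number series 4 were called, and the share of all genes there is not given here. In WSD/CD against CD/CD, FTL was lower, against 8.03% of all genes, and none was higher, against 1.52%. WSD/WSD and WSD/CD livers differed in 7 of the 10, all higher in WSD/WSD, where 37.9% of all genes were higher and 6.14% lower. All 7 calls ended without the series 34 animals and with the mitochondrial share as a covariate, including BMP6 (1.07, adjusted p = 0.0866 without series 34, and 0.88, adjusted p = 0.223 with the share) and SLC40A1 (0.67, adjusted p = 0.152, and 0.40, adjusted p = 0.423). How many of all genes kept their calls under either setting is not given here, so this loss is not particular to the iron genes as far as shown. The mitochondrial share was 1.34% to 2.64% in WSD/WSD and 1.43% to 16.1% in WSD/CD, and 5 of 7 hepatocyte markers were higher in WSD/WSD. The median fold change of the 10 was 0.83 there, beside 0.26 for all genes tested, and it was 0.40 in WSD/WSD against CD/CD, beside 0.10 for all genes.

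No iron gene was called by limma in WSD/WSD against CD/WSD, the comparison of maternal diets under a western-style postweaning diet, nor for the interaction of both diets, and 0% of all genes were called in either. At an unadjusted p under 0.05 the 10 genes gave 0 in WSD/WSD against CD/WSD, 0 in CD/WSD against CD/CD and 5 for the interaction, while all genes gave 307, 1790 and 2453. The interaction was largest in size for CP, at 1.33 on the log2 scale (SE 0.639, adjusted p = 0.248). A test for any difference among the 4 groups called 7 of the 10, against 40.7% of all genes. That count was 2 under median-of-ratios scaling and 0 without series 34 or with the mitochondrial share as a covariate. The share of all genes called under these settings is not given here, so the counts do not set the iron genes apart. WSD/WSD and CD/WSD were each set against the same CD/CD livers, and WSD/WSD entered 3 of the 5 pairs, so these comparisons share animals.

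**Figure D2:**
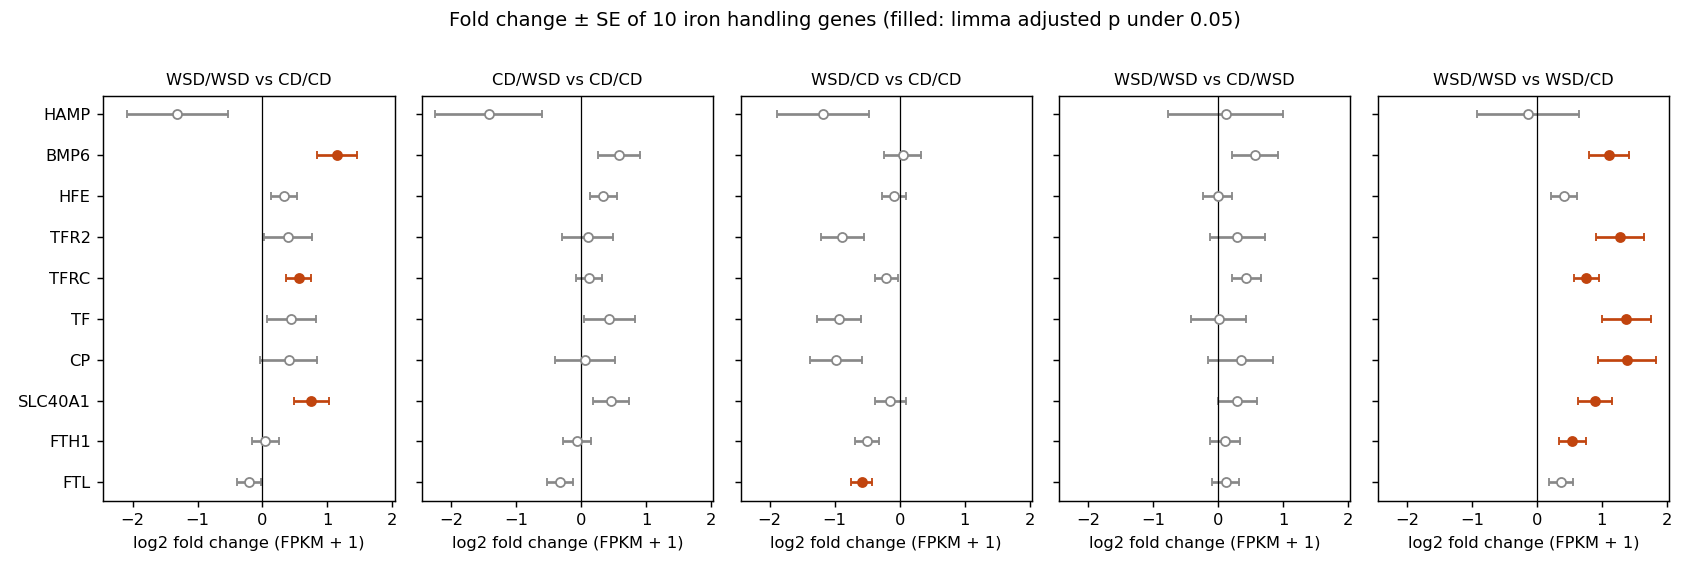
Log2 fold change of FPKM + 1 with its standard error for the 10 genes in 5 comparisons, filled where limma's adjusted p was under 0.05. BMP6 stands at 1.15, SLC40A1 at 0.75 and TFRC at 0.56 in WSD/WSD against CD/CD, and no gene is filled in CD/WSD against CD/CD or in WSD/WSD against CD/WSD.

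BMP6, the ligand that rises with liver iron and turns on HAMP in mice, had the largest called difference of the 10 in WSD/WSD against CD/CD livers. It ranged over 0.321 to 4.25 FPKM with a median of 3.61 in WSD/WSD, over 0.103 to 4.02 with a median of 1.49 in CD/WSD, over 0.151 to 1.66 with a median of 0.489 in WSD/CD and over 0.122 to 0.989 with a median of 0.493 FPKM in CD/CD. In both groups weaned to the western-style diet the animals split into a high and a low cluster, and all ranges overlapped. BMP6 was higher in WSD/WSD than in CD/CD by 1.15 on the log2 scale (SE 0.311, limma adjusted p = 0.0167), with 5 of 7 animals above the CD/CD mean. The difference of CD/WSD from CD/CD was 0.58 (SE 0.326, adjusted p = 0.394), with 3 of 6 animals above that mean. In bulk liver, fewer cells of a type and less RNA per cell cannot be told apart. Of the markers of endothelial cells 2 of 8 were also higher in WSD/WSD than in CD/CD, and of those of Kupffer cells 2 of 9 were lower.

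The 2 clusters matched the number series. Among animals weaned to WSD, the 8 of series 30 had 2.61 to 4.25 FPKM of BMP6. The 5 of series 31 had 0.321 and 0.381 FPKM in WSD/WSD and 0.106, 0.103 and 0.186 FPKM in CD/WSD. The lowest series 30 animal thus stood far above the highest of series 31, whatever the maternal diet. Series 30 exceeded series 31 by 1.87 on the log2 scale, with maternal diet as a term (SE 0.107, limma adjusted p = 2.2e-07).

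Ferroportin, SLC40A1, the only known cellular iron exporter, split the same animals. It had 42.2 to 122 FPKM with a median of 84.0 in WSD/WSD, 28.4 to 115 with a median of 67.6 in CD/WSD, 23.3 to 106 with a median of 36.3 in WSD/CD and 29.99 to 58.8 with a median of 47.4 FPKM in CD/CD. The CD/CD livers were the most alike, and every group overlapped the others. SLC40A1 was higher in WSD/WSD than in CD/CD by 0.75 (SE 0.267, limma adjusted p = 0.0491), in 5 of 7 animals against the CD/CD mean. This call sat at the threshold: leaving out any of 22 of the 33 libraries in turn lifted the adjusted p above 0.05, to at most 0.121. The 11 whose removal kept it were CD/WSD replicates 1, 2, 4 and 5, WSD/WSD replicates 6 and 7, CD/CD replicates 6 and 8 and WSD/CD replicates 4, 5 and 6.

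Among animals weaned to WSD, ferroportin had 80.4 to 122 FPKM in series 30. In series 31 it had 42.2 and 43.0 FPKM in WSD/WSD and 45.5, 28.4 and 52.6 FPKM in CD/WSD. Again no series 31 animal reached the series 30 range, and the difference was 1.24 (SE 0.162, limma adjusted p = 0.000153). HFE, which releases its hold on TFRC to join TFR2 in iron sensing, ranged over 4.12 to 10.8 FPKM in series 30 and 3.39 to 5.97 in series 31. The HFE ranges overlapped, and the difference was 0.61 (SE 0.187, adjusted p = 0.0301). Under median-of-ratios scaling the HFE difference was 0.41 (adjusted p = 0.139). Among the 10 genes these 3 were called higher in series 30, where 23.1% of all genes were higher and 2.55% lower. BMP6 and SLC40A1 were among the 13.6% of all genes whose series 30 range lay wholly above that of series 31.

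The postweaning diets were compared within series 30, whose 14 animals cover all 4 groups. The WSD-weaned animals there are numbered up to 30399 and the CD-weaned ones from 30586. Postweaning diet and number order thus cannot be told apart within this series. With maternal diet as a term, 6 of the 10 genes were higher in the 8 animals weaned to WSD than in the 6 weaned to CD, where 37.6% of all genes were higher. FTL was lower, where 15.2% of all genes were. BMP6 had 2.61 to 4.25 FPKM in WSD-weaned and 0.122 to 0.805 FPKM in CD-weaned animals of series 30, and the ranges did not meet. The difference was 1.73 (SE 0.141, limma adjusted p = 5.9e-07). SLC40A1 had 80.4 to 122 and 29.99 to 52.3 FPKM in WSD-weaned and CD-weaned animals of series 30, also without overlap (1.32, SE 0.146, adjusted p = 6.6e-06). How many of all genes had ranges without overlap between these animals was not counted. HFE had 4.12 to 10.8 FPKM in the WSD-weaned and 3.55 to 6.26 in the CD-weaned animals and overlapped (0.73, SE 0.163, adjusted p = 0.00200).

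Split into the diet groups, series 30 gave 7 calls in WSD/WSD against CD/CD (44.7% of all genes), 6 in CD/WSD against CD/CD (39.1%) and 7 in WSD/WSD against WSD/CD (41.5%). BMP6 was higher by 1.81 in WSD/WSD than in CD/CD (SE 0.173, limma adjusted p = 1.0e-05) and by 1.70 in CD/WSD than in CD/CD (SE 0.197, adjusted p = 5.0e-05). For SLC40A1 both differences were 1.22. WSD/CD against CD/CD gave none within series 30 (2.92% of all genes), with 3 of the 10 at an unadjusted p under 0.05, as had 2430 of the 12497 genes tested. Within series 31, HAMP was the 1 call in WSD/WSD against CD/CD (0.136% of all genes) and in CD/WSD against CD/CD (0.168%), and both set the western-fed livers against 1 CD/CD animal.

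Maternal diet was compared within the WSD-weaned animals of series 30, where none of the 10 genes was called by limma, none had an unadjusted p under 0.05, and 0% of all genes were called. BMP6 had 2.61 to 4.25 FPKM in 5 WSD/WSD animals and 2.79, 3.35 and 4.02 FPKM in 3 CD/WSD animals. Their ranges overlapped throughout, with a log2 difference of 0.11 (SE 0.189, limma adjusted p = 0.958). For SLC40A1 the same difference was 0.00 (SE 0.191, adjusted p = 1). An adjusted p of this size does not show that the groups were alike: for BMP6 the standard error leaves room for a difference several times the estimate.

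The effect of the postweaning diet on BMP6 in series 30 exceeded that in series 31 by 1.70 (SE 0.273, limma adjusted p = 0.00095). For SLC40A1 the excess was 1.27 (SE 0.341, adjusted p = 0.0326), and 6.42% of all genes were called higher in this contrast. In series 31 a single CD/CD animal stands for the control diet, with 0.158 FPKM of BMP6 and 40.8 FPKM of SLC40A1, so this result rests on that liver. Under median-of-ratios scaling the excess was 1.504 for BMP6 (adjusted p = 0.00294) and 0.91 for SLC40A1 (adjusted p = 0.0814).

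Markers of nonparenchymal cells moved with the same split. Summed over 9 endothelial genes, WSD-weaned animals had 75.9 to 93.0 FPKM in series 30 and 20.8 to 26.7 FPKM in series 31. Summed over 10 Kupffer cell genes they had 618 to 854 FPKM in series 30 and 176 to 323 FPKM in series 31. Of the tested markers 7 of 8 endothelial and 7 of 9 Kupffer cell genes were higher in series 30, and no gene of either list was lower. Stellate cell markers summed to 98.3 to 135 FPKM in series 30 and 55.6 to 94.0 FPKM in series 31, with 3 of 6 higher. Markers of T and NK cells summed to 3.17 to 5.72 FPKM in series 30 and 1.085 to 3.30 FPKM in series 31, with 3 of 4 higher. The lone CD/CD animal of series 31 had an endothelial sum of 66.5 FPKM and a Kupffer sum of 895 FPKM beside its low BMP6 and SLC40A1. In the CD-weaned animals of series 30 the endothelial sum ranged over 32.6 to 71.2 FPKM and the Kupffer sum over 446 to 717 FPKM. Of the tested markers 4 of 8 endothelial and 7 of 9 Kupffer cell genes were higher in WSD-weaned than in CD-weaned animals of series 30, with 2 Kupffer cell genes lower. The part of cell makeup in the BMP6 and SLC40A1 values was not tested.

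**Figure D3:**
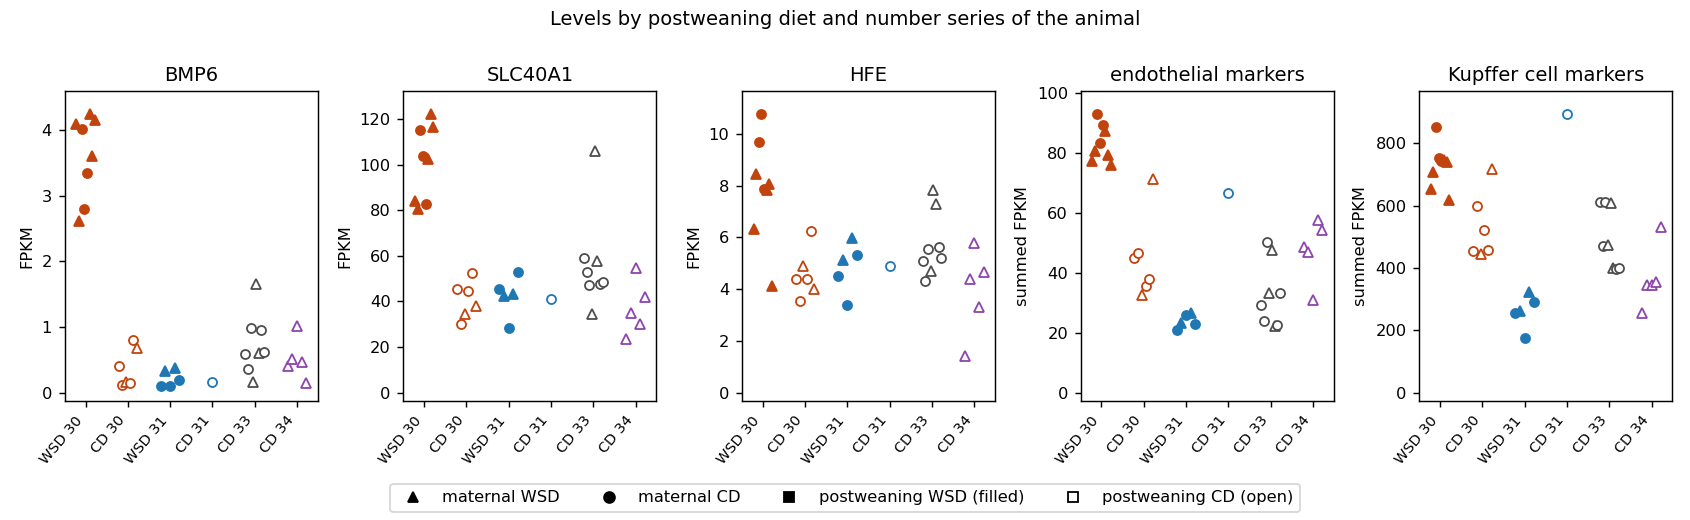
FPKM of BMP6, SLC40A1 and HFE and summed FPKM of endothelial and Kupffer cell markers by postweaning diet and number series (linear axes, 1 point per liver, triangles for maternal WSD and circles for maternal CD, filled for postweaning WSD and open for postweaning CD). BMP6 is 2.61 FPKM or more only in the 8 WSD-weaned animals of series 30, while both marker sums are also high in the single CD-weaned animal of series 31.

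HAMP, which encodes hepcidin, was low and varied widely. The 7 WSD/WSD livers had 3.44, 3.46, 3.62, 3.84 and 4.43 FPKM, with 2 listed at 0. Of the 6 CD/WSD livers 3 were listed at 0 and the others had 2.94, 8.45 and 12.1 FPKM. Of the 10 WSD/CD livers 5 were listed at 0 and the others had 4.09, 6.56, 10.5, 15.4 and 22.3 FPKM. Of the 10 CD/CD livers 2 were listed at 0, and the rest reached from 4.51 FPKM to 18.2 and, in CD/CD replicate 5, 41.7 FPKM. All 4 groups overlapped at 0, and no WSD/WSD animal lay above 4.43 FPKM.

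For HAMP, no value stood between 0 and 2.94 FPKM, and 9 livers had HAMP under 5 FPKM without being at 0. A listed 0 need not mean absent transcripts, since RPS27, a ribosomal protein gene that every cell uses, was also listed at 0 in 1 library. Relative depth was 0.642 to 1.39 where HAMP was at 0 and 0.514 to 1.65 where it was not. By this estimate the zeros did not fall in the shallowest libraries alone. The estimate is the most common ratio among low genes and is coarse. That ratio held 11.5% of the genes compared in WSD/CD replicate 9 and 36.7% in WSD/CD replicate 1. Multiplied by relative depth, the lowest nonzero values came to between 2.45 and 5.52 in 9 libraries, with no cluster at a single step.

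With the zeros kept as deposited, HAMP was called in none of the 4-group comparisons. Its fold change was -1.31 in WSD/WSD against CD/CD (SE 0.784, limma adjusted p = 0.238), with 7 of 7 animals below the CD/CD mean. It was -1.42 in CD/WSD against CD/CD (SE 0.822, adjusted p = 0.406) and -1.18 in WSD/CD against CD/CD (SE 0.712, adjusted p = 0.259). Within series 30, HAMP had 10.5 and 22.3 FPKM in the 2 WSD/CD animals, above all 5 WSD/WSD animals. There it was lower in WSD/WSD by 2.65 on the log2 scale (log2 fold change -2.65, SE 0.994, adjusted p = 0.0485), where 10.5% of all genes were called lower.

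**Figure D4:**
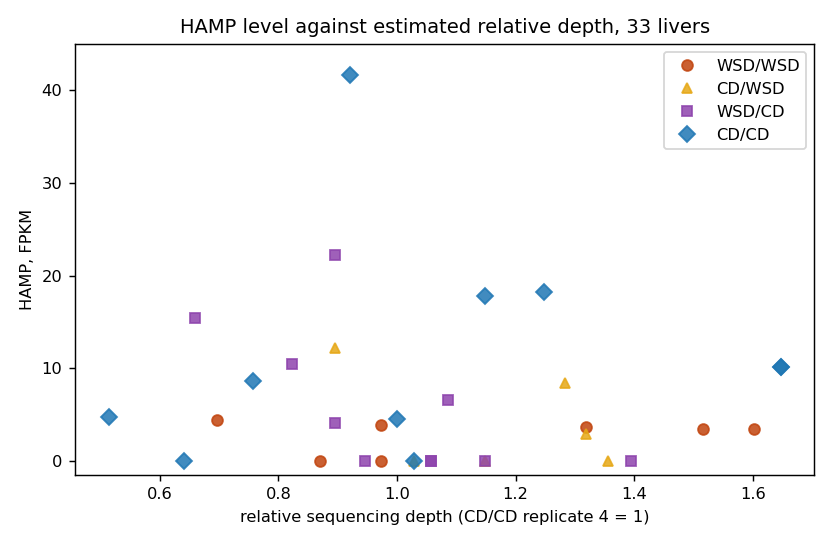
HAMP in FPKM against the estimated relative sequencing depth of each of 33 libraries, by diet group. The 12 libraries at 0 lie between relative depths of 0.642 and 1.39, and the highest value, 41.7 FPKM, belongs to a CD/CD liver.

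Because the libraries at 0 stood apart, the relations of HAMP to BMP6, to the BMP target genes ID1 and SMAD7, to SOCS3, a target of the interleukin signal that also drives HAMP, and to TFRC were computed over the 21 libraries above 0. SOCS3 and HAMP rose together (Pearson r = 0.652, permutation p = 0.00105, adjusted 0.00525 over 5 relations, and Spearman rho = 0.492, permutation p = 0.0245, adjusted 0.0409). For each relation, r was also taken without the 2 libraries farthest from the median of the partner gene. For SOCS3 it was then 0.444 (permutation p = 0.0582) and no longer past the threshold. The r of SOCS3 was 0.778 within the 8 CD/CD and 0.738 within the 11 series 30 libraries. ID1, which reports BMP signalling, gave r = 0.604 (permutation p = 0.00364, adjusted 0.00910, and rho = 0.547, p = 0.0118, adjusted 0.0409). It fell to 0.356 without the 2 farthest libraries (permutation p = 0.134) and was then no longer past the threshold. The r of ID1 was 0.534 within CD/CD and 0.452 within series 30. With group means removed r was 0.420 for ID1 (permutation p adjusted 0.144) and 0.594 for SOCS3 (permutation p adjusted 0.0216).

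BMP6 ran against HAMP over the same 21 libraries (r = -0.453, permutation p = 0.0395, adjusted 0.0493, and rho = -0.451, p = 0.0414, adjusted 0.0517). With the diet group means removed r was -0.177 (permutation p adjusted 0.548). SMAD7, an inhibitor that BMP signalling induces, did so too (r = -0.498, permutation p = 0.0220, adjusted 0.0366, and rho = -0.494, p = 0.0241, adjusted 0.0409), and with group means removed r was -0.317 (permutation p adjusted 0.272). Neither was past the threshold without the 2 farthest libraries, where r was -0.346 for BMP6 (permutation p = 0.146) and -0.311 for SMAD7 (permutation p = 0.197). Within the CD/CD livers r was -0.230 for BMP6 and -0.090 for SMAD7, and within series 30 it was -0.576 for BMP6 and -0.653 for SMAD7. TFRC gave r = -0.396 (permutation p = 0.0753, adjusted 0.0753) and rho = -0.429 (p = 0.0528, adjusted 0.0528). With group means removed it was 0.0089, without the 2 farthest libraries -0.309, within CD/CD -0.241 and within series 30 -0.192.

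Of 10032 named genes with a mean of at least 1 FPKM, the 5 whose values ranked the 33 livers most like HAMP were ID2 (Spearman rho 0.724), NOS1AP (0.718), RHOG (0.697), TIMM9 (0.688) and CORO1B (0.688). ID2 is itself induced by BMP signalling. The 12 libraries tied at 0 and the shared depth of each library enter these coefficients, which are given as a description.

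TFRC, the transferrin receptor of most cells, was the other gene called in WSD/WSD against CD/CD. It had 3.50 to 6.94 FPKM with a median of 5.80 in WSD/WSD, 2.64 to 5.49 with a median of 3.31 in CD/WSD, 1.11 to 6.70 with a median of 2.69 in WSD/CD and 2.09 to 4.32 with a median of 3.09 FPKM in CD/CD. Every WSD/WSD animal lay above the CD/CD mean, although the ranges overlapped. The difference was 0.56 (SE 0.194, limma adjusted p = 0.0456), and leaving out any of 13 of the 33 libraries in turn ended the call, with an adjusted p of at most 0.109. They were WSD/WSD replicates 3 to 6, CD/CD replicates 1 to 5, 7 and 10, CD/WSD replicate 6 and WSD/CD replicate 3. The difference was 0.43 under median-of-ratios scaling (adjusted p = 0.0716) and 0.38 after quantile normalization (adjusted p = 0.114).

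Unlike BMP6, TFRC did not part by number series among WSD-weaned animals, with 2.89 to 6.94 FPKM in series 30 and 2.64 to 6.04 in series 31 (difference 0.12, SE 0.177, limma adjusted p = 0.662). Against WSD/CD livers it was higher in WSD/WSD by 0.76 (SE 0.194, adjusted p = 0.00314). That difference depended on series 34, where 5 WSD/CD animals had 1.11 to 3.70 FPKM: without them it was 0.39 (adjusted p = 0.154), and within series 30 it was -0.04 (adjusted p = 0.916). Series 30 has only 2 WSD/CD animals, at 3.95 and 6.70 FPKM of TFRC. The 5 genes that ranked the 33 livers most like TFRC were STARD7 (rho 0.887), ATF6 (0.861), SEC23A (0.854), MAPK1IP1L (0.853) and TRMT5 (0.849).

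Transferrin, the plasma carrier made by hepatocytes, reached 2191 to 4212 FPKM with a median of 3014 in WSD/WSD and 1077 to 4242 with a median of 3750 in CD/WSD. It had 276 to 3501 FPKM with a median of 1384 in WSD/CD and 1427 to 3674 with a median of 2419 in CD/CD. The WSD/CD group held the lowest livers of all. TF was higher in WSD/WSD than in WSD/CD by 1.38 (SE 0.375, limma adjusted p = 0.00478), and the difference of WSD/CD from CD/CD was -0.94 (SE 0.341, adjusted p = 0.0686).

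TFR2, the iron-sensing receptor of hepatocytes, had 303 to 362 FPKM with a median of 336 in WSD/WSD and 120 to 387 with a median of 299.7 in CD/WSD. It had 48.4 to 467 FPKM with a median of 127 in WSD/CD and 148 to 463 with a median of 259 in CD/CD. WSD/WSD was the tightest group and WSD/CD the widest. TFR2 was higher in WSD/WSD than in WSD/CD by 1.28 (SE 0.371, limma adjusted p = 0.00718). Ceruloplasmin, the copper ferroxidase, had 950 to 1660 FPKM in WSD/WSD, 394 to 1701 in CD/WSD, 145 to 2395 in WSD/CD and 543 to 1921 FPKM in CD/CD. Its difference between WSD/WSD and WSD/CD was 1.39 (SE 0.441, adjusted p = 0.0124), with 6 WSD/CD animals of 10 below every WSD/WSD animal.

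The 6 livers lowest in TF were also the 6 lowest in TFR2 and had a mitochondrial share of 4.41% to 16.1%. Low values also occurred at a low share: CD/CD replicate 5, with the lowest share of all libraries at 1.33%, had 1427 FPKM of TF, the lowest of its group, and 161 FPKM of TFR2. The share ran over 1.34% to 2.64% in WSD/WSD, 1.62% to 4.41% in CD/WSD, 1.43% to 16.1% in WSD/CD and 1.33% to 3.46% in CD/CD. In the 5 WSD/CD animals of series 34 it had a median of 11.5%, and there TF had 276 to 2421 FPKM, TFR2 48.4 to 374 and CP 145 to 988 FPKM. The hepatocyte marker sum was 5728 to 21527 FPKM in those 5 livers and 20197 to 28184 FPKM in CD/CD. With the mitochondrial share as a covariate, the differences between WSD/WSD and WSD/CD were 0.27 for TF (limma adjusted p = 0.572), 0.18 for TFR2 (adjusted p = 0.722) and 0.09 for CP (adjusted p = 0.900). Without series 34 they were 0.62 for TF (adjusted p = 0.176), 0.69 for TFR2 (adjusted p = 0.162) and 0.66 for CP (adjusted p = 0.301).

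**Figure D5:**
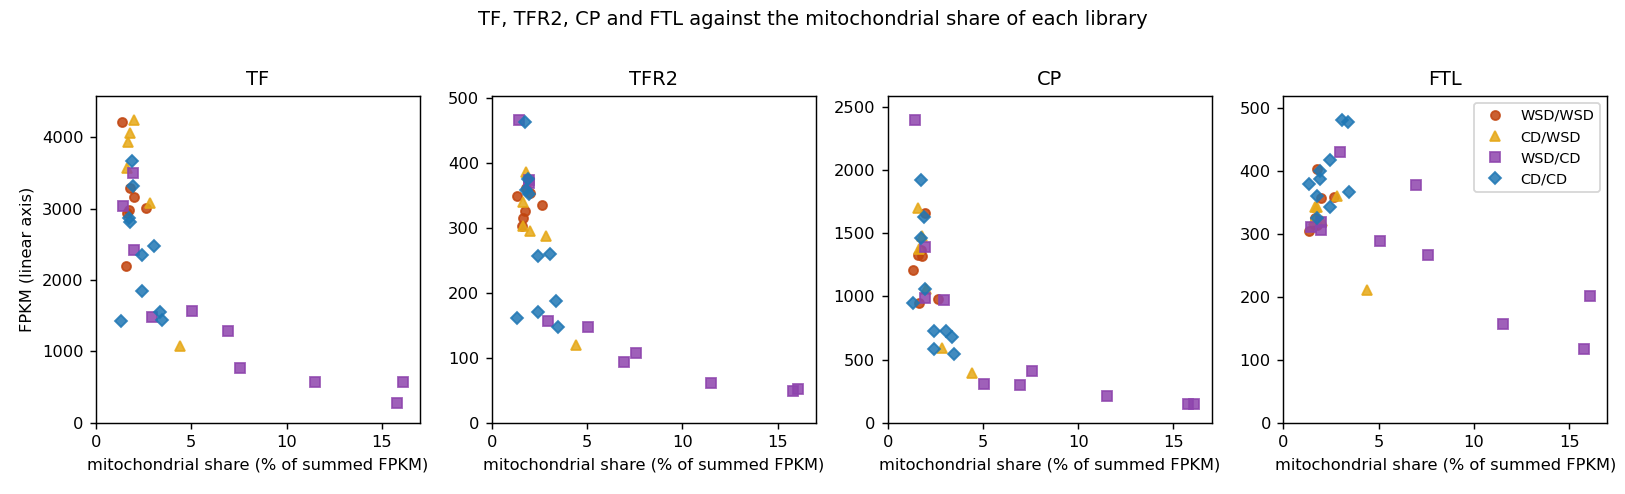
FPKM of TF, TFR2, CP and FTL against the percent of summed FPKM in 13 mitochondrially encoded genes (linear axes, 1 point per liver, by diet group). The livers above 5% are all WSD/CD and reach no more than 1561 FPKM of TF.

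Within series 30, where postweaning diet and number order went together, all 3 genes were higher after weaning to WSD. TF had 2191 to 4212 FPKM in the 8 WSD-weaned and 1289 to 2484 FPKM in the 6 CD-weaned animals, with some overlap (1.12, SE 0.162, limma adjusted p = 6.8e-05). TFR2 had 303 to 387 FPKM in WSD-weaned and 94.2 to 261 FPKM in CD-weaned animals, which did not overlap (1.12, SE 0.161, adjusted p = 6.3e-05). Ranges without overlap were not counted over all genes here. CP had 950 to 1701 FPKM in WSD-weaned and 297 to 972 FPKM in CD-weaned animals (1.26, SE 0.225, adjusted p = 0.000369). The mitochondrial share of the same livers was 1.34% to 1.98% in WSD-weaned and 2.44% to 6.94% in CD-weaned animals, so it also parted them. As a covariate it left a difference of 0.97 for TF (adjusted p = 0.0104), 0.67 for TFR2 (adjusted p = 0.0201) and 0.63 for CP (adjusted p = 0.0986).

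CD-weaned animals were not uniform either. Series 33 exceeded series 30 in TF, with 1561 to 3674 against 1289 to 2484 FPKM (0.78, SE 0.197, limma adjusted p = 0.0270). TFR2 had 147 to 467 FPKM in series 33 and 94.2 to 261 FPKM in series 30 (1.04, SE 0.246, adjusted p = 0.0244). These 2 of the 10 genes were called, where 12.1% of all genes were higher in series 33.

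The ferritin chains together form the storage shell, and a difference between them was not tested. In WSD/CD against CD/CD both were lower, and FTH1 was not called (-0.50, SE 0.186, limma adjusted p = 0.0725). In WSD/WSD against WSD/CD both were higher, and FTL was not called (0.38, SE 0.185, adjusted p = 0.0933). Their signs differed in WSD/WSD against CD/CD, where neither was called. Within series 30 FTH1 stood at 0.31 after weaning to WSD (SE 0.148, adjusted p = 0.0963), and FTL was lower. FTL had 304 to 403 FPKM with a median of 325 in WSD/WSD, 210.0 to 360.5 with a median of 332 in CD/WSD, 117 to 430.4 with a median of 298 in WSD/CD and 325 to 481 with a median of 382 FPKM in CD/CD. In WSD/CD 9 of 10 animals lay below the CD/CD mean. The FTL level was thus lower in WSD/CD livers (log2 fold change -0.59 against CD/CD, SE 0.168, limma adjusted p = 0.0312). The difference was -0.20 without series 34 (adjusted p = 0.730), -0.19 with the mitochondrial share as a covariate (adjusted p = 0.848) and -0.39 under median-of-ratios scaling (adjusted p = 0.0654). The call also ended when CD/CD replicate 4 or 6 or WSD/CD replicate 6, 7 or 9 was left out, with an adjusted p of at most 0.0781.

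Within series 30, FTL went the other way from TF. It had 304 to 356 FPKM in the 8 WSD-weaned and 343 to 481 FPKM in the 6 CD-weaned animals, with little overlap, a difference of -0.31 (SE 0.0967, limma adjusted p = 0.0161) beside a median of 0.17 for all genes. Under median-of-ratios scaling it was -0.57 (adjusted p = 0.000863), and with the mitochondrial share as a covariate -0.33 (adjusted p = 0.121). FTH1, the chain with ferroxidase activity, had 563 to 848 FPKM in WSD/WSD, 338 to 842 in CD/WSD, 320.1 to 743 in WSD/CD and 322 to 985 FPKM in CD/CD. It was higher in WSD/WSD than in WSD/CD by 0.55 (SE 0.205, adjusted p = 0.0314), but by 0.20 under median-of-ratios scaling (adjusted p = 0.419). That call also ended without WSD/WSD replicate 3 or 7 or WSD/CD replicate 3, 6 or 10, with an adjusted p of at most 0.0637. HFE was called in none of the 4-group comparisons, with 0.33 in WSD/WSD against CD/CD (SE 0.200, adjusted p = 0.241).

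The wider pathway was read from gene lists chosen for their known roles. Of 19 tested genes of hepcidin control, 5 were higher in WSD/WSD than in CD/CD and none lower: the ligand BMP2, its receptor BMPR1A, the signal carriers SMAD4 and SMAD5, and NEO1, the neogenin that binds hemojuvelin. The median of the list was 0.45, beside 0.10 for all genes, of which 13.2% were called higher and 3.42% lower. In the same comparison 2 of 8 endothelial markers were higher. BMP2 had 0.701 to 4.65 FPKM with a median of 3.48 in WSD/WSD and 0.530 to 2.51 with a median of 1.01 in CD/CD (0.81, SE 0.234, limma adjusted p = 0.0212). It also split by series among WSD-weaned animals, with 2.98 to 4.65 FPKM in series 30 and 0.520 to 1.21 in series 31 (1.31, SE 0.114, adjusted p = 5.3e-06). SMAD4 had 6.01 to 13.4 FPKM in WSD/WSD and 1.69 to 6.94 in CD/CD (1.13, SE 0.284, adjusted p = 0.0134).

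The BMP targets ID1 and SMAD7 did not follow the ligands past the threshold. ID1 had 32.6 to 67.9 FPKM in WSD/WSD and 20.6 to 229 FPKM in CD/CD (-0.51, SE 0.325, limma adjusted p = 0.265). SMAD7 had 4.99 to 8.56 and 1.44 to 7.28 FPKM in WSD/WSD and CD/CD (0.62, SE 0.230, adjusted p = 0.0573). SOCS3 had 1.33 to 9.99 FPKM in WSD/WSD and 1.83 to 15.4 in CD/CD (-0.40, SE 0.398, adjusted p = 0.503). TMPRSS6, the protease that cuts hemojuvelin, was lower in WSD/CD livers, at -0.62 against CD/CD (log2, SE 0.176, adjusted p = 0.0312), as was HJV (-0.92, SE 0.273, adjusted p = 0.0346), and no gene of this list was higher there. In that comparison 8.03% of all genes were lower and 1.52% higher. The series 34 livers of WSD/CD had a median mitochondrial share of 11.5% and hepatocyte marker sums of 5728 to 21527 FPKM. The part of these in the TMPRSS6 and HJV values was not tested.

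Among 15 tested genes of iron and heme uptake, 3 were higher in WSD/WSD than in CD/CD and 1 lower, a share near the 13.2% of all genes called higher and 3.42% called lower. STEAP3, which reduces iron in the endosome after TFRC uptake, had 10.6 to 19.6 FPKM in WSD/WSD and 2.37 to 12.4 in CD/CD (1.20, SE 0.400, limma adjusted p = 0.0387). The reductases CYBRD1 (0.86, SE 0.243, adjusted p = 0.0197) and STEAP2 (0.84, SE 0.264, adjusted p = 0.0317) were the others. BLVRB, which reduces biliverdin, had 6.17 to 14.7 FPKM in WSD/WSD and 16.8 to 31.2 FPKM in CD/CD, with no overlap (-0.98, SE 0.170, adjusted p = 0.00170). The share of all genes without overlap in this comparison was not counted. In WSD/CD against CD/CD 5 genes of this list were lower and none higher, where 8.03% of all genes were lower, 4 of 7 hepatocyte markers were lower and the series 34 livers had a median mitochondrial share of 11.5%. The part of these in the count was not tested. Among the 5 were SLC39A14, an importer of iron not bound to transferrin, at -1.005 (SE 0.269, adjusted p = 0.0255) and SLC11A2, the proton-coupled iron transporter, at -0.73 (SE 0.195, adjusted p = 0.0247). The others were LRP1, HMOX2 and SLC48A1.

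None of 6 tested storage and sensing genes was called in WSD/WSD against CD/CD, where NCOA4, the receptor for ferritin breakdown, stood at 0.55 (SE 0.257, limma adjusted p = 0.124), ACO1, the iron regulatory protein, at 0.42 (SE 0.309, adjusted p = 0.349) and IREB2, its partner, at 0.20 (SE 0.111, adjusted p = 0.199). HMOX1, the inducible heme oxygenase of the uptake list, stood at 0.15 (SE 0.287, adjusted p = 0.756). Of 16 heme and iron-sulfur genes none was higher, and those lower included ALAS1, the first enzyme of heme synthesis (-0.49, SE 0.168, adjusted p = 0.0427). In CD/WSD against CD/CD no gene of the 4 lists was called. In WSD/CD against CD/CD the storage list had PCBP1 lower (-0.45, SE 0.142, adjusted p = 0.0410) and the heme list ALAD lower (-0.64, SE 0.183, adjusted p = 0.0311), and neither list had a gene higher. Among all genes 8.03% were lower there and 1.52% higher. The part of the mitochondrial share in these calls was not tested.

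In WSD/WSD against WSD/CD, where 37.9% of all genes were called higher, the hepcidin control list had 13 of 19 higher, the uptake list 7 of 15 higher and 1 lower (BLVRB), the storage list 6 of 6 higher, and the heme list 6 of 16 higher and 1 lower (ALAS1). In the same comparison 5 of 7 hepatocyte markers were higher, the WSD/CD livers had a mitochondrial share of up to 16.1%, and none of the 10 iron genes kept its call with that share as a covariate. The part of the mitochondrial share in the list counts was not tested, and the percent of all genes called with it as a covariate is not given here. STEAP3 led the uptake list at 2.17 (SE 0.400, limma adjusted p = 0.000675), SMAD4 the hepcidin list at 1.42 (SE 0.284, adjusted p = 0.000969), CPOX, an enzyme of heme synthesis, the heme list at 1.44 (SE 0.336, adjusted p = 0.00193) and NCOA4 the storage list at 1.13 (SE 0.257, adjusted p = 0.00171).

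Within series 30 the WSD-weaned animals exceeded the CD-weaned ones in 13 of 19 hepcidin control genes, where 37.6% of all genes were higher. Number order within the series also parted these animals. The mitochondrial share parted the same animals, at 1.34% to 1.98% in the WSD-weaned and 2.44% to 6.94% in the CD-weaned, and 7 of 9 Kupffer and 4 of 8 endothelial markers were higher in the WSD-weaned. With the share as a covariate 30.3% of all genes were called in either direction, and its part in the list count was not tested. SMAD4 had 8.26 to 13.4 FPKM in WSD-weaned and 1.69 to 3.07 in CD-weaned animals (1.72, SE 0.132, limma adjusted p = 3.6e-07), with no overlap. The share of all genes without overlap between these animals was not counted. BMP2 had 2.98 to 4.65 and 0.4999 to 1.79 FPKM in WSD-weaned and CD-weaned animals (1.22, SE 0.136, adjusted p = 7.2e-06). SMAD7 was among the 13 (0.90, SE 0.187, adjusted p = 0.00112). ID1 was not, with 32.6 to 67.9 FPKM in WSD-weaned and 20.6 to 116 FPKM in CD-weaned animals (-0.63, SE 0.305, adjusted p = 0.0971). Nor was HAMP itself, with 0 to 12.1 FPKM in WSD-weaned and 0 to 22.3 in CD-weaned animals (-0.84, SE 0.786, adjusted p = 0.395). STEAP3 had 14.6 to 20.4 FPKM in WSD-weaned and 1.24 to 5.89 in CD-weaned animals (2.22, SE 0.165, adjusted p = 2.8e-07).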

How the data were processed

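Per the labels, liver RNA isolated with a Qiagen RNeasy kit was made into strand-specific mRNA libraries with a Swift kit and sequenced in pairs on a NovaSeq instrument. GSNAP, SAMtools and Cufflinks are listed in the submitters' processing notes. Their settings, roles and genome build were not stated in the sources at hand. The FPKM values come from a single table deposited by the authors, whose columns carry the animal numbers of the sample titles. Total depth is unknown.

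Here log2(FPKM + 1) was fitted with limma 3.58.1 (R 4.3.3), with an intensity trend, 4 group means over 33 libraries (29 residual degrees of freedom) and Benjamini-Hochberg adjustment over 12497 genes with a mean of at least 0.5 FPKM and no missing value. The test was checked on simulated data. Relations used permutation tests with 100000 resamples, two-sided. They were planned over 33 libraries and run over the 21 with HAMP above 0. The iron genes and all gene lists were chosen with earlier results of these data known. Besides the 10 genes and 11 pathway genes named in any case (BMP2, HJV, TMPRSS6, ID1, SMAD7, SOCS3, SLC39A14, NCOA4, HMOX1, ACO1 and IREB2), called list genes could be named, at most 8 per comparison and direction, and 1 such result is not reported here. The list of number series contrasts, their 2 alternatives and the 21 libraries were chosen after seeing the data. Other alternatives were a pseudocount of 0.1, no filter, other scalings, covariates, sample weights and leaving out libraries.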

Additional observations from a re-analysis of the deposited data

Results flagged for a closer look

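Dixon's test was run on linear FPKM for 40 combinations of gene and diet group. Its chance rate of about 1 in 20 presumes independent, normally spread values, which FPKM from shared libraries need not be. No excess is therefore read from the 7 combinations in which a single liver stood far from its group. CD/WSD replicate 5 accounted for 3 of them, with the lowest TF (1077 FPKM, next 3079), TFR2 (120 FPKM, next 288) and FTL (210.0 FPKM, next 320.0) of its group, and this library also had the highest mitochondrial share of CD/WSD at 4.41%. TFRC was highest by a wide gap in CD/WSD replicate 1 (5.49 FPKM, next 3.66) and in WSD/CD replicate 1 (6.70 FPKM, next 3.95). HAMP reached 41.7 FPKM in CD/CD replicate 5, the only control-fed animal of series 31, against 18.2 FPKM for the next CD/CD liver. SLC40A1 reached 106 FPKM in WSD/CD replicate 4, against 57.6 for the next, and BMP6 was also highest of its group there, at 1.66 FPKM.

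The effect of weaning to WSD was larger in series 30 than in series 31 by 1.70 on the log2 scale for BMP6 and by 1.27 for SLC40A1, both past the threshold for the difference itself (limma adjusted p = 0.00095 and 0.0326). With the mitochondrial share as a covariate these were 1.78 for BMP6 (adjusted p = 0.00309) and 0.96 for SLC40A1 (adjusted p = 0.187). A single control-fed animal of series 31 carries both.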

How the results depend on the processing

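No paired analysis was possible because the labels give the animals no numbers shared between groups. Of the 10 genes, the count called in WSD/WSD against CD/CD was 3, and 1 with a pseudocount of 0.1 or without the low-value filter. With number series as a factor or below animal number 32000 it was 6. Within series 30 it was 7, where 44.7% of all genes were called. The count of 0 in CD/WSD against CD/CD became 4 with number series as a factor and 5 with sample weights. It became 6 within series 30, where 39.1% of all genes were called. Series 31 holds 1 CD/CD liver, and all 3 CD/WSD livers there are listed at 0 for HAMP. Calls of HAMP within that series therefore show nothing. The count of 1 in WSD/CD against CD/CD became 0 under either scaling, with number series as a factor, below 32000, without series 34, with the mitochondrial share, in the 2 groups alone and within series 30, and 5 with sample weights. The 7 calls in WSD/WSD against WSD/CD became 2 below 32000 and 0 without series 34 or with the mitochondrial share. The 7 for any difference became 2 under median-of-ratios scaling, 4 with number series as a factor, 3 below 32000 and 0 without series 34 or with the mitochondrial share. The causes were not tested. For most other settings the share of all genes is not given here, so the counts alone do not set the iron genes apart. Below 32000 fewer animals are fitted. Leaving out each library gave 1 to 3 calls in WSD/WSD against CD/CD, 0 to 5 in WSD/CD against CD/CD (5 without WSD/CD replicate 4 or 5, 3 without replicate 8, 2 without CD/CD replicate 5), 6 to 8 in WSD/WSD against WSD/CD, 4 to 8 for any difference (4 without WSD/CD replicate 6, 7 or 9) and 0 elsewhere.

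BMP6 in WSD/WSD against CD/CD kept its call without each of the 33 libraries (adjusted p 0.00551 to 0.0483) and under the alternatives other than series 31 alone. TFRC between WSD/WSD and WSD/CD reversed to -0.034 below 32000 and to -0.044 within series 30. Both values rest on the same 2 WSD/CD animals. Without series 34, r with HAMP was -0.437 for BMP6 and -0.446 for SMAD7. After group means were removed it was -0.177 for BMP6, 0.420 for ID1, -0.317 for SMAD7 and 0.0089 for TFRC, which reversed.

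Median-of-ratios scaling moved the median of all genes to -0.01 in WSD/WSD against CD/CD, to -0.01 in WSD/CD against CD/CD, where it had been -0.15, and to -0.0003 in WSD/WSD against WSD/CD. Higher calls were then 1260 and lower 1020 in WSD/WSD against CD/CD (1655 and 428 as deposited), 400 and 356 in WSD/CD against CD/CD (190 and 1003), and 2333 and 2103 in WSD/WSD against WSD/CD (4731 and 767). Total depth is unknown, and HAMP, HFE, TFRC and BMP6 have the lowest mean FPKM of the 10.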

Other observations

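BMP6 and SLC40A1 each had genes that ranked the 33 livers much as they did, a search added after their values were seen. For BMP6 these were ANKRD13A (Spearman rho 0.885), STON1 (0.884), SEPTIN11 (0.880), ITIH5 (0.875) and ASAH1 (0.872). For SLC40A1 they were TRAPPC6B (0.949), KDM1A (0.946), EPHB4 (0.942), GTF2E1 (0.941) and SMAP2 (0.936). The number series and each library's depth enter these coefficients.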
